A study of Mus musculus with 11 samples.

Results

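The genes of the immunoglobulin kappa chain variable segments were examined in RNA sequencing of whole lacrimal glands. Members were all genes of the table whose symbol begins with Igkv, and 91 of its 19058 genes met this rule. They fall into 19 families by the first number of the symbol, which groups segments of similar sequence. By annotation, 89 are functional variable genes, and Igkv1-115 and Igkv4-83 are pseudogenes. The largest families here were family 4 with 24 members, family 1 with 11 and family 3 with 9, while families 7, 11, 13 and 15 to 19 had 1 member each.

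Glands were taken from 11 male NOD mice, a strain that develops lacrimal gland autoimmunity, with 1 library per mouse. There were 3 wild-type (WT) NOD mice, 5 Tlr7 KO NOD mice carrying a 2 base-pair deletion made by CRISPR/Cas9 in Tlr7, a gene of the X chromosome, and 3 Ifnar1 KO NOD mice of the NOD.Ifnar1 em16/em16 line. The WT and Tlr7 KO mice were 20 to 22 weeks old by the study's methods, and the age of the Ifnar1 KO mice is not given in the sources used here. By those methods the authors dropped a further Ifnar1 KO library that lay with the WT libraries. Inflammation of that sample was at the level of WT. The 3 Ifnar1 KO mice are thus a group selected in part on expression and inflammation, which bears on every value that compares them with other mice. Tlr7 encodes an endosomal receptor for single-stranded RNA, and Ifnar1 encodes a chain of the type I interferon receptor. Both knockouts are constitutive, so every cell type lacks the gene product, and there is 1 edited allele per line. The comparisons ask which variable genes depend on TLR7 and which on type I interferon signaling, and the same 3 WT mice serve in both comparisons with WT.

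A kappa light chain gene is assembled in a developing B cell, when 1 variable segment is joined to 1 of the joining segments (Igkj) upstream of the constant gene Igkc. Each B cell generally keeps 1 functional light chain, so the relative RNA of the variable genes in a tissue reflects the mixture of its B cells and plasma cells, weighted by the RNA each cell makes. Plasma cells make far more immunoglobulin RNA than resting B cells. The lacrimal gland holds plasma cells that supply secreted IgA, whose chains are linked by the product of Jchain. In a bulk gland, fewer cells of a type and less RNA per cell cannot be told apart.

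On GRCm38 (mm10) the members lie on chromosome 6 between positions 67555497 and 70704177, with Igkc at 70726435 to 70726966. The second number of a symbol counts segments from the Igkc side, so Igkv3-3 is near Igkc and Igkv1-133 is at the far side. In the annotation, 35 members are on the + strand, as is Igkc, and 56 are on the - strand. A segment in the same orientation as the joining segments joins by deletion of the DNA between them, and one in the opposite orientation joins by inversion.

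The variable genes share long stretches of sequence, which bears on how reads can be assigned. The median member shared 48.0% of its 31-base words with at least 1 other annotated Igkv gene, member or not (range 0 to 87.0%). Of the members, 41 shared at least 50%, and 4 shared none. The 3 members that differed between the knockouts, described further on, are shown for this reason, with the V exon that encodes most of the variable domain. Sequences are from GENCODE M21 transcripts on GRCm38, which is the C57BL/6J reference, so NOD alleles may differ. Capitals mark the 22 of 298 positions at which the 3 exons are not all the same.
Igkv12-41 (chr6:69858420-69858717, - strand): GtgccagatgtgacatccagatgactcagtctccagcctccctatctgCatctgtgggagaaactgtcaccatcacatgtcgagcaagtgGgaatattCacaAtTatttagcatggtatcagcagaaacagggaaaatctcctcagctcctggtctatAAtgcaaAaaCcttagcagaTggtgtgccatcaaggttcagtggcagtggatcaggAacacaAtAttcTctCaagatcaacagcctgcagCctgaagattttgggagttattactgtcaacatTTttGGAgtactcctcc
Igkv12-44 (chr6:69814631-69814928, - strand): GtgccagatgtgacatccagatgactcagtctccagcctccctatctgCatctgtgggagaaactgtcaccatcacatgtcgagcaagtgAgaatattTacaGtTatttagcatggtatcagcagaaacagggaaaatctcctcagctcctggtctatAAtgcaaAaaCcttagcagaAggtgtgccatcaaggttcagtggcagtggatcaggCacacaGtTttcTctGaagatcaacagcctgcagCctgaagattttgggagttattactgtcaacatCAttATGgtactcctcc
Igkv12-46 (chr6:69764523-69764820, - strand): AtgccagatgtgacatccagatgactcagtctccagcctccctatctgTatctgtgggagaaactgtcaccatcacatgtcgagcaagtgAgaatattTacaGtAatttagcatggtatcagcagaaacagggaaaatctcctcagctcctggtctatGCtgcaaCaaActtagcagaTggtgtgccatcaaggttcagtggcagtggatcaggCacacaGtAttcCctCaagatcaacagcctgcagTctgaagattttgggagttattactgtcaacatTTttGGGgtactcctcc

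The last 60 coding bases are shown for the most used members and for the family 1 members that were lower in Ifnar1 KO mice. Capitals mark the 23 germline bases after the last cysteine codon, which begin the third complementarity-determining region (CDR3), the most variable part of the antigen-binding site.
Igkv1-110 (chr6:68271208-68271267, + strand): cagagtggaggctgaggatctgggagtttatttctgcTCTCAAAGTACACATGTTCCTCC
Igkv1-117 (chr6:68121768-68121827, + strand): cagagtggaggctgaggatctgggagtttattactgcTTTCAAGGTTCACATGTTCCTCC
Igkv1-131 (chr6:67766036-67766095, - strand): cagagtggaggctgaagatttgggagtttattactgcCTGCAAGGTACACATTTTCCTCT
Igkv1-132 (chr6:67760354-67760413, + strand): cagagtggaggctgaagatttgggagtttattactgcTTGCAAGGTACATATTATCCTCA
Igkv1-133 (chr6:67725602-67725661, + strand): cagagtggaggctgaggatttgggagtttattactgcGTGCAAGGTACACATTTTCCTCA
Igkv15-103 (chr6:68437866-68437925, + strand): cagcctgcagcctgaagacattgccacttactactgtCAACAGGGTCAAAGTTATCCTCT
Igkv6-20 (chr6:70335841-70335900, - strand): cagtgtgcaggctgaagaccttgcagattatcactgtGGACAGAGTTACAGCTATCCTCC
Igkv6-32 (chr6:70074024-70074083, - strand): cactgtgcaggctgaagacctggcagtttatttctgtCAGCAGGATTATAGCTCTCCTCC
The 5 family 1 ends differed from each other at 3 to 10 of 60 bases. Igkv1-110 and Igkv1-117 differed at 4, and Igkv1-110 and Igkv15-103 at 27.

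Libraries held 20512315 to 28814250 estimated counts assigned to genes, and levels are given as CPM, the counts scaled to library size after TMM correction for differences in RNA composition. Some libraries stood apart in genes of neighboring tissue. The summed level of the 4 salivary gland genes in the table was 1949 CPM in WT 3, 1703 CPM in Ifnar1 KO 2 and 137 CPM in Ifnar1 KO 1, and at most 1.90 CPM in the other mice. The summed level of 4 muscle genes was 300 CPM in WT 1, 212 CPM in WT 2 and 214 CPM in Tlr7 KO 4, and at most 8.67 CPM in the other mice. Tlr7 was at 1.52 to 2.94 CPM in WT, 0.494 to 0.950 CPM in Tlr7 KO and 0.251 to 0.822 CPM in Ifnar1 KO mice, so its transcript was still counted in the edited line. Ifnar1 was at 10.5 to 15.1 CPM in WT, 8.34 to 11.2 CPM in Tlr7 KO and 8.34 to 9.63 CPM in Ifnar1 KO mice. A transcript that is still made does not check a small edit. The 10 lacrimal gland epithelial markers were all detected, with a summed level of 1068 to 1304 CPM in WT, 1559 to 1617 CPM in Tlr7 KO and 1571 to 1777 CPM in Ifnar1 KO mice. In CPM every knockout gland was thus above every WT gland. This order depends on the TMM factors, which were 1.43, 0.873 and 1.48 in WT, 0.687 to 0.977 in Tlr7 KO and 0.935 to 1.09 in Ifnar1 KO mice.

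The summed RNA of the variable genes was lower in Tlr7 KO than in WT glands, and in CPM the Ifnar1 KO glands ranged from below to above the WT glands. WT 1, 2 and 3 had summed levels of 423, 372 and 382 CPM, a mean of 392 ± 27.0 CPM (SD, n = 3). Tlr7 KO 1 to 5 had 198, 187, 160, 194 and 108 CPM, a mean of 169 ± 37.3 CPM (SD, n = 5). Ifnar1 KO 1, 2 and 3 had 249, 444 and 276 CPM, a mean of 323 ± 106 CPM (SD, n = 3). Every Tlr7 KO gland was below every WT and every Ifnar1 KO gland, while the WT and Ifnar1 KO ranges overlapped, because Ifnar1 KO 2 was the highest of all 11 mice and the other two Ifnar1 KO glands were below all WT glands. On the log2 scale the ratio of the means was -1.21 for Tlr7 KO to WT, -0.28 for Ifnar1 KO to WT and -0.93 for Tlr7 KO to Ifnar1 KO. Without WT 3 and Ifnar1 KO 2, the libraries highest in salivary genes, these ratios were -1.23, -0.60 and -0.63. Without WT 1, WT 2 and Tlr7 KO 4, those highest in muscle genes, they were -1.23, -0.24 and -0.98. Without TMM, as a percent of all counts of the library, the sum was 0.0602, 0.0324 and 0.0565 in WT and 0.00744 to 0.0190 in Tlr7 KO mice. In Ifnar1 KO mice it was 0.0272, 0.0443 and 0.0258, so Ifnar1 KO 2 was then below WT 1 and WT 3. No test was run on this sum over the members.

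Other parts of the immunoglobulin locus are given beside this level. Igkc, the constant region that nearly all kappa transcripts carry, was at 1315, 1111 and 1106 CPM in WT, 523, 483, 424, 433 and 306 CPM in Tlr7 KO, and 663, 1190 and 742 CPM in Ifnar1 KO mice. Igkc fell by 1.44 on the log2 scale in Tlr7 KO against WT (SE 0.16, adjusted p = 8.7e-04, edgeR), and its log2 difference of -0.47 between Ifnar1 KO and WT was not significant (SE 0.26, adjusted p = 0.233). Igkc was also lower in Tlr7 KO than in Ifnar1 KO (log2 fold change -0.99, SE 0.21, adjusted p = 0.0425). Jchain had log2 fold changes of -1.33 (adjusted p = 9.5e-04), -0.32 (adjusted p = 0.380) and -1.02 (adjusted p = 0.0397) in the same 3 comparisons. The ratio of the summed Igkv level to Igkc was 0.321 to 0.345 in WT, 0.354 to 0.448 in Tlr7 KO and 0.372 to 0.375 in Ifnar1 KO mice, so every knockout ratio was above every WT ratio.

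B cell and plasma cell markers did not move alike. All 12 B cell genes of the list were lower in Tlr7 KO and in Ifnar1 KO than in WT mice, and between the knockouts no adjusted p was under 0.05 (edgeR). Their summed level was 99.0 to 351 CPM in WT, 7.71 to 64.2 CPM in Tlr7 KO and 2.76 to 25.6 CPM in Ifnar1 KO mice, and none was at 0 in a whole group. The 12 plasma cell genes, with a summed level of 977 to 1247 CPM in WT, 1036 to 1118 CPM in Tlr7 KO and 1036 to 1318 CPM in Ifnar1 KO mice, had 5 lower and 3 higher in Tlr7 KO against WT, 3 lower and 2 higher in Ifnar1 KO against WT, and 1, Jchain, lower in Tlr7 KO against Ifnar1 KO. Beside Jchain, those lower in Tlr7 KO by edgeR were Mzb1 (log2 fold change -1.83, adjusted p = 6.6e-04) and Pou2af1 (-1.90, adjusted p = 0.00307). Irf4 (-1.45, adjusted p = 0.0157) and Slamf7 (-1.39, adjusted p = 0.0159) were lower too. The 3 lower in Ifnar1 KO were Mzb1, Pou2af1 and Slamf7. Of that list Xbp1 and Sdc1, named after their values were seen, are also expressed by gland epithelium. Xbp1 was at 312 to 450 CPM in WT and 404 to 473 CPM in Tlr7 KO mice, and Sdc1 was higher in Tlr7 KO than in WT (log2 fold change 0.63, adjusted p = 0.00255). Derl3 (log2 fold change 0.83, adjusted p = 0.00204) and Txndc5 (0.41, adjusted p = 0.0345), also named after their values were seen, were higher too by edgeR. The 2 higher in Ifnar1 KO than in WT were Sdc1 (0.82, adjusted p = 0.0207) and Derl3 (0.87, adjusted p = 0.0400). The 8 T cell genes had 6 lower in Tlr7 KO and 7 lower in Ifnar1 KO against WT, with summed levels of 24.8 to 78.6 CPM in WT, 5.85 to 31.2 CPM in Tlr7 KO and 1.38 to 14.1 CPM in Ifnar1 KO mice. The 10 epithelial markers had 2 lower and 4 higher in Tlr7 KO, and 2 lower and 2 higher in Ifnar1 KO against WT. The part of these cell types in the Igkv levels was not tested. Igkj1 was lower in Tlr7 KO than in WT (log2 fold change -1.40, SE 0.43, adjusted p = 0.0342). Igkj5 was not significant (log2 fold change -0.82, adjusted p = 0.0658), and Igkj3 was too low to test. Of the lambda light chain genes, all 4 tested were lower in Tlr7 KO and 2 of 4 were lower in Ifnar1 KO than in WT. Iglc2 was lower in Tlr7 KO (log2 fold change -2.74, adjusted p = 8.4e-04) and in Ifnar1 KO (log2 fold change -1.80, adjusted p = 0.0207) than in WT. Iglv1, named after its values were seen, was at 12.4 to 29.8 CPM in WT and 19.5 to 41.0 CPM in Ifnar1 KO mice (log2 fold change 0.35, adjusted p = 0.526), and was lower in Tlr7 KO than in Ifnar1 KO (log2 fold change -1.92, adjusted p = 0.0403).

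**Figure D1:**
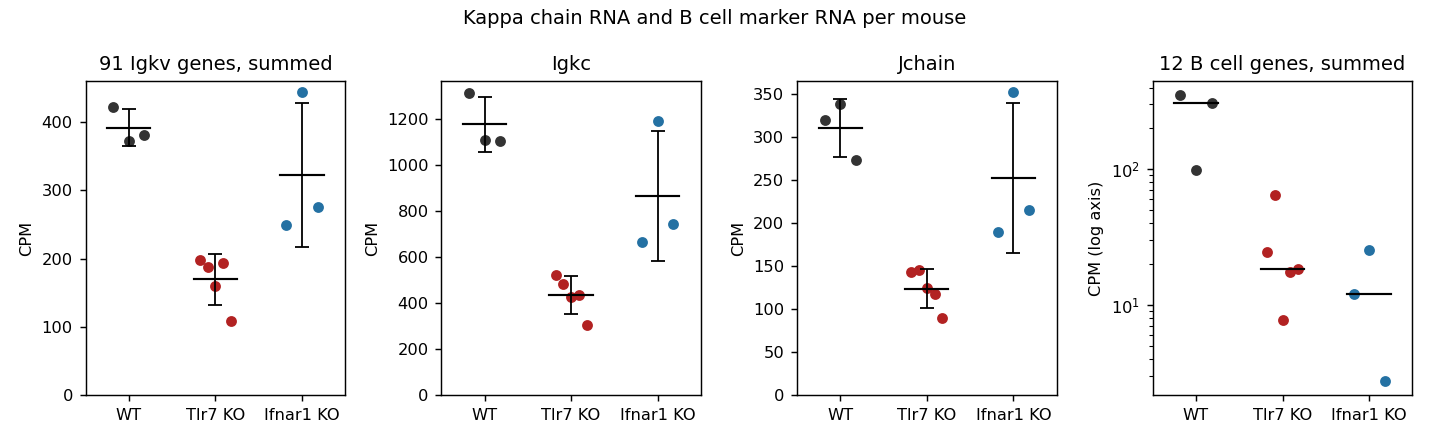
Summed level of the 91 Igkv genes, level of Igkc, level of Jchain (all in CPM) and summed level of 12 B cell genes (CPM, log axis) in each mouse, by group. Points are mice, horizontal lines are group means with SD bars, and in the B cell panel the line is the median. Tlr7 KO glands, at 108 to 198 CPM of Igkv RNA, lay below all WT and Ifnar1 KO glands, while B cell genes were lowest in Ifnar1 KO 3 at 2.76 CPM.

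Usage was broad in every gland. Of the 91 members, 42 had over 3 counts in all 11 mice and 2 had over 3 counts in none. Between 67 and 81 members passed 3 counts in a WT mouse, 55 to 65 in a Tlr7 KO mouse and 65 to 77 in an Ifnar1 KO mouse, at summed Igkv counts of 8814 to 13957, 2050 to 5167 and 6582 to 11870. The effective number of genes, which is the number of equally used genes that would give the same Shannon diversity, was 37.8, 34.2 and 37.6 in WT, 31.9, 36.2, 33.5, 23.5 and 32.8 in Tlr7 KO, and 33.4, 38.4 and 33.9 in Ifnar1 KO mice. The group means were 36.5 ± 2.01 (SD, n = 3), 31.6 ± 4.80 (SD, n = 5) and 35.3 ± 2.74 (SD, n = 3). The 3 ranges overlapped, and the lowest value belonged to Tlr7 KO 4. In that gland 5 members made up 52.6% of the Igkv counts, against 30.7 to 40.6% for the 5 most used members of each other mouse.

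A small number of genes carried much of the RNA. The 8 members with the highest mean level held 44.7% of the summed mean CPM, and their order was the same per kilobase of transcript. Igkv1-110 was first with 70.1 CPM per kb, followed by Igkv15-103 (42.9), Igkv6-20 (42.3), Igkv6-32 (40.0), Igkv12-44 (32.5), Igkv10-96 (32.1), Igkv5-45 (29.8) and Igkv4-53 (29.2), all in CPM per kb averaged over the 11 mice. All neighbors in this order overlapped in their ranges across mice. The order pools groups of unequal size and level, and it differed by group. In WT glands Igkv1-110 (116 CPM per kb) was followed by Igkv5-45 (59.0) and Igkv6-20 (52.4), whereas in Ifnar1 KO glands Igkv6-20 (62.4), Igkv12-44 (54.2) and Igkv6-32 (52.8) had higher means than Igkv1-110 (51.5). The mean of Igkv15-103 in Tlr7 KO, 43.9 CPM per kb, included 99.3 in Tlr7 KO 4 and 17.5 to 50.7 in the others. These levels are from the first of 2 deposited tables, and single genes differed between the tables, as described further on.

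In the first table Igkv1-110 was the most used member in 8 of 11 mice. It was at 52.7, 50.2 and 36.7 CPM in WT, 26.9, 20.2, 23.7, 20.8 and 15.9 CPM in Tlr7 KO, and 15, 16 and 30.9 CPM in Ifnar1 KO mice. All 8 knockout mice were below all 3 WT mice, and Igkv1-110 was lower in Tlr7 KO (log2 fold change -1.11, SE 0.17, adjusted p = 0.00224) and in Ifnar1 KO (log2 fold change -1.18, SE 0.30, adjusted p = 0.0371) by edgeR's quasi-likelihood test. In the second deposited table the direction in Tlr7 KO turned (log2 fold change 0.30). The Ifnar1 KO call missed the threshold in 9 of 19 alternatives (adjusted p up to 0.204).

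Igkv15-103 was the most used member of Tlr7 KO 4 and of Ifnar1 KO 1, with 19.2% and 8.79% of their Igkv counts. Its level was 14.5, 15.2 and 21 CPM in WT, 19.0, 10.6, 6.57, 37.2 and 8.87 CPM in Tlr7 KO, and 21.9, 13.4 and 8.75 CPM in Ifnar1 KO mice. The groups overlapped, and its log2 fold change in Tlr7 KO against WT was -0.04 (SE 0.50, adjusted p = 0.958). It shared no 31-base word with another member. Igkv15-103 is the single member of family 15, and that family therefore ranged from 3.02% to 19.2% of the Igkv counts across mice.

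Igkv6-20 was at 22.4, 17.8 and 18.8 CPM in WT, 12.5, 12.7, 5.20, 10.1 and 4.96 CPM in Tlr7 KO, and 16.2, 37.8 and 16.2 CPM in Ifnar1 KO mice, and was the most used member of Ifnar1 KO 2 (8.53%). It was lower in Tlr7 KO than in WT (log2 fold change -1.11, SE 0.30, adjusted p = 0.0209), a call that missed the threshold in 6 of 21 alternatives (adjusted p up to 0.135). Igkv6-32, of the same family, was at 15, 12.1 and 22.8 CPM in WT, 8.27, 7.18, 8.28, 23.9 and 5.65 CPM in Tlr7 KO, and 15.9, 22.8 and 19.4 CPM in Ifnar1 KO mice. In Tlr7 KO mice it was high in mouse 4 alone, and it was not DE (adjusted p = 0.276 against WT). Igkv4-53 showed the same kind of spread, at 13.1, 4.85 and 13.2 CPM in WT, 4.06, 5.35, 15.9, 4.57 and 3.75 CPM in Tlr7 KO, and 15.1, 24.3 and 13.7 CPM in Ifnar1 KO mice.

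Igkv10-96 was at 16.3, 15 and 18.5 CPM in WT, 12.4, 4.70, 6.46, 2.59 and 2.54 CPM in Tlr7 KO, and 9.67, 27.0 and 11.5 CPM in Ifnar1 KO mice. Igkv5-45 was at 14.4, 30.6 and 23.0 CPM in WT, 4.78, 7.70, 3.42, 8.28 and 4.70 CPM in Tlr7 KO, and 5.86, 14.2 and 8.92 CPM in Ifnar1 KO mice. Both were lower in Tlr7 KO than in WT, by 1.52 (SE 0.44, adjusted p = 0.0265) and by 1.97 (SE 0.30, adjusted p = 0.00244) on the log2 scale. The call missed the threshold in 8 of 21 alternatives for Igkv10-96 (adjusted p up to 0.121), among them without WT 1, WT 3, Tlr7 KO 2 or Tlr7 KO 3 in turn, and in 1 of 21 for Igkv5-45 (adjusted p up to 0.0735). Igkv5-45 was below all WT mice in the Ifnar1 KO mice too, and did not pass the threshold there (log2 fold change -1.25, adjusted p = 0.0517).

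**Figure D2:**
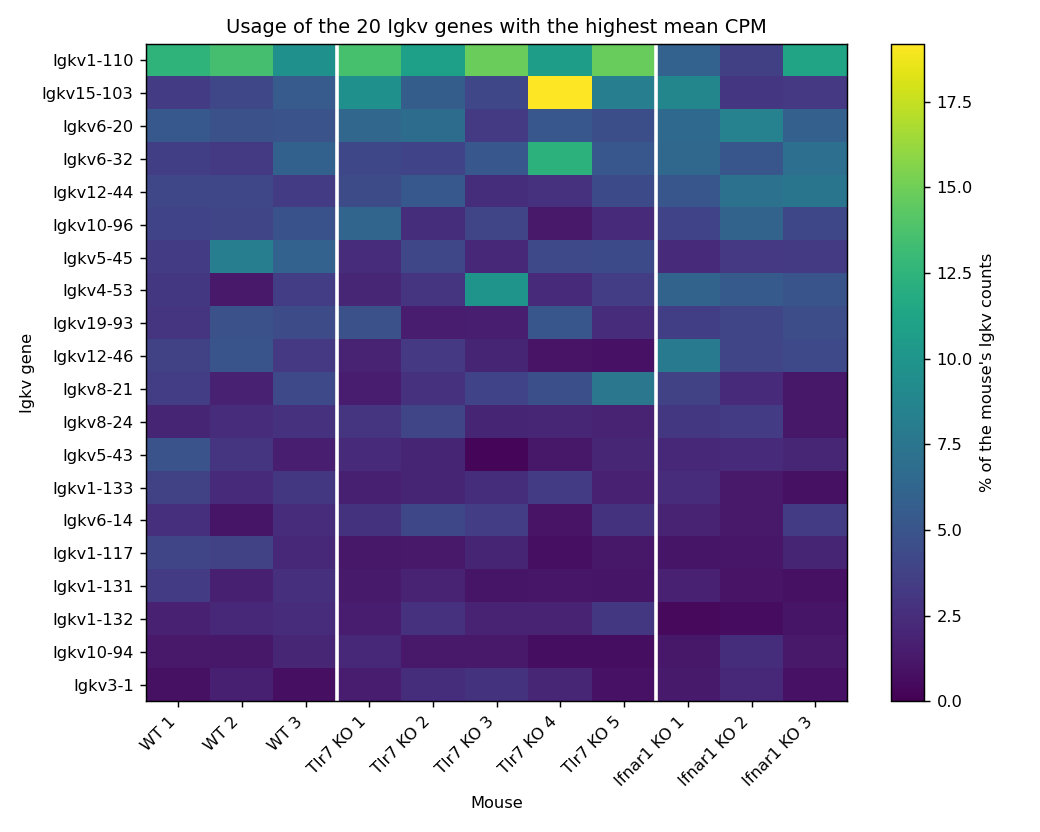
Share of each mouse's Igkv counts (%, color scale) taken by the 20 Igkv genes with the highest mean CPM, with genes in rows and the 11 mice in columns, and white lines between the groups. Igkv1-110 is bright in most mice, reaching 14.8% in Tlr7 KO 3, and Igkv15-103 stands out in Tlr7 KO 4 at 19.2%.

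By family, shares of a mouse's Igkv counts set the size of the pool aside and show its composition. Family 1 was the largest in WT glands in the first table, with 29.2, 24.8 and 22.4%, and it held 20.9, 21, 25.7, 18.9 and 24.7% in Tlr7 KO and 14.3, 9.34 and 17.6% in Ifnar1 KO mice. All 3 Ifnar1 KO shares were below those of every other mouse. Family 12 went the other way, with 9.32, 11.3 and 8.39% in WT, 6.89, 9.16, 5.45, 3.97 and 6.15% in Tlr7 KO, and 14.8, 16.3 and 14.2% in Ifnar1 KO mice. Here all 3 Ifnar1 KO shares were above those of every other mouse.

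Family 5 held 10.3, 13.4 and 8.35% in WT, 7.86, 6.72, 3.71, 6.22 and 7.66% in Tlr7 KO, and 6.14, 6.05 and 6.67% in Ifnar1 KO mice, so both knockouts lay below WT. Family 6 held 14.1, 10.8 and 15.6% in WT, 16.6, 18.2, 15.4, 21.2 and 15.9% in Tlr7 KO, and 17.1, 17.4 and 19.6% in Ifnar1 KO mice. Family 4 held 8.76, 6.75 and 9.69% in WT, 7.04, 8.65, 19.5, 5.28 and 11% in Tlr7 KO, and 11.5, 12.3 and 12.8% in Ifnar1 KO mice. The high value of Tlr7 KO 3 is that of the mouse in which Igkv4-53 was high. Among the less used families, family 9 was at 0.477 to 0.903% in WT and above that range in every knockout mouse (0.986 to 3.65%). Family 11 was at 0.0674 to 0.152% in Ifnar1 KO and 0.255 to 0.907% in Tlr7 KO mice. In WT it was at 0.874, 0.0113 and 0.100%, a range that overlapped both knockouts. Shares of 1 mouse sum to 100% and are not independent of each other, and no test was run on them.

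A second table of counts for the same mice, whose counting tool is not given in the sources used here, also holds the 91 genes. Its summed Igkv counts were 25.6 to 38.8% of those of the first table. In it, family 1 was again lowest in the 3 Ifnar1 KO mice (6.45 to 11.4% against 14.4 to 18.9% in WT) and family 12 again highest (16.4 to 20.8% against 11.1 to 13.3% in WT). Family 5, not family 1, was the larger in each WT mouse of that table (20.1 against 18.9%, 23.9 against 18.3% and 14.5 against 14.4%). Family 5 overlapped between WT (14.5 to 23.9%) and Tlr7 KO mice (6.84 to 15.1%) in that table, and family 9 overlapped between WT (1.32 to 2.02%) and Ifnar1 KO mice (1.88 to 3.71%).

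**Figure D3:**
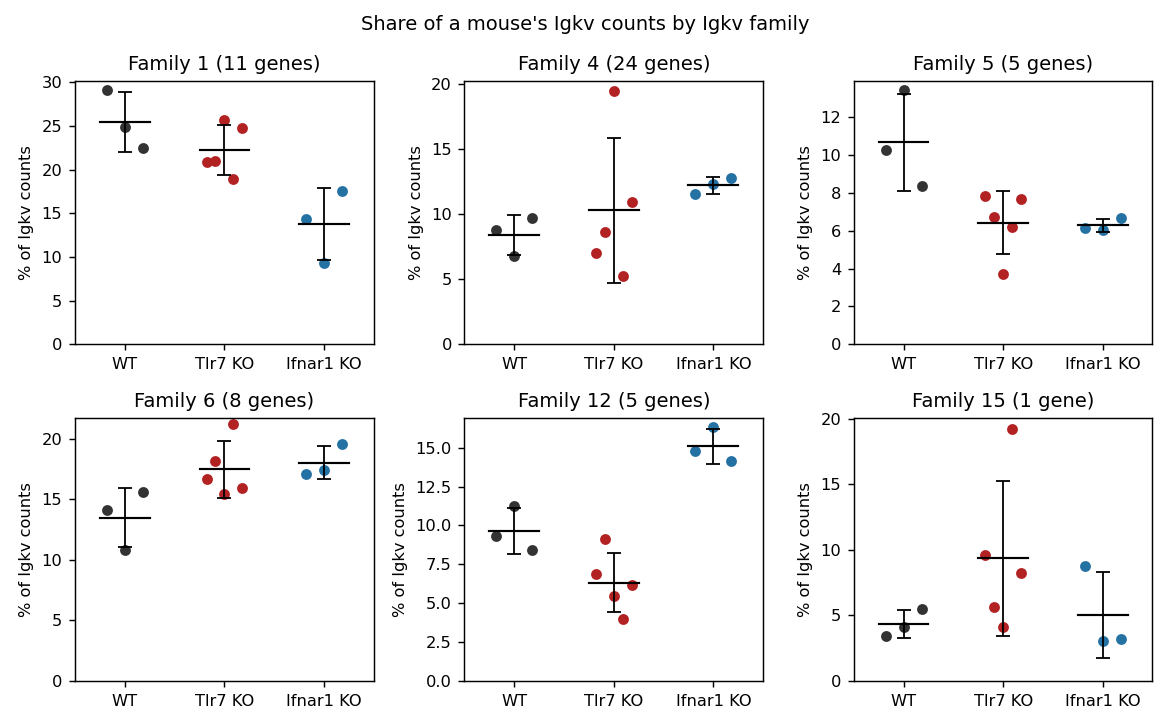
Share of each mouse's Igkv counts (%) held by families 1, 4, 5, 6, 12 and 15, by group, with points for mice and lines for group means with SD bars. Ifnar1 KO mice are lowest for family 1 (9.34 to 17.6%) and highest for family 12 (14.2 to 16.3%), and family 15 reaches 19.2% in Tlr7 KO 4.

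In the comparison of WT with Tlr7 KO glands, variable genes were lower across most families. Genes were tested if the WT mice together had 30 counts or more, which left out 23 members that held 0.579 to 1.66% of the Igkv counts of a mouse. Among the 68 members tested, 33 were differentially expressed (DE, adjusted p under 0.05), all lower in Tlr7 KO, and 32 of them by at least 2-fold. That is 48.5% of the members tested, beside 17.4% of all 13937 genes tested that were lower and 15.3% that were higher. By edgeR no member was higher, at an unadjusted p under 0.05 also none, and DESeq2 found none. The levels did not overlap between the groups for 27 members, all lower (39.7%), beside 14.2% of all genes that were lower without overlap and 16.6% that were higher. The median log2 fold change was -1.41 over the members tested and -0.04 over all genes tested. Because the filter asks for counts in WT, members that pass through WT alone could enter, so the test was repeated with at least 30 counts over the mice compared, which gave 33 DE of 74, and with no filter, which gave 30 DE of 91, again all lower.

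The lower genes were spread over 11 of the 19 families. All 4 tested members of family 12 were lower, as were 7 of 11 of family 1, 3 of 4 of family 5, 6 of 14 of family 4, 3 of 8 of family 3, 3 of 5 of family 8, 2 of 7 of family 6, 2 of 2 of family 10, 1 of 2 of family 2, 1 of 3 of family 14 and the single member of family 19. That last gene, Igkv19-93, had 366, 417 and 615 counts in WT mice, but 2, 1 and 0 in the second table, so its call rests on the first table alone. In families 9, 11, 13, 15, 16 and 17 no tested member was DE. Families 7 and 18 had no member tested.

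Genes of family 1 were among those lower in Tlr7 KO. Igkv1-117 was at 16.9, 13.9 and 8.42 CPM in WT and 2.45, 2.44, 3.19, 1.57 and 1.32 CPM in Tlr7 KO mice, a log2 fold change of -2.56 (SE 0.29, adjusted p = 8.6e-04). Igkv1-131 and Igkv1-133 had log2 fold changes of -2.15 (SE 0.33, adjusted p = 0.00238) and -1.63 (SE 0.31, adjusted p = 0.00548). These values are from the first table, and in the second Igkv1-131 was at 0 in all 11 mice and Igkv1-133 had 38, 21 and 68 counts in WT mice, against 455, 210 and 435 in the first. Igkv12-38 was at 5.41, 4.98 and 2.38 CPM in WT and 0.574, 0.826, 0.456, 0.247 and 0.317 CPM in Tlr7 KO mice, and fell by 3.11 on the log2 scale (SE 0.38, adjusted p = 0.00108).

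The other members with the largest fitted changes rest on few counts. Igkv4-59 had 87, 41 and 37 counts in WT and 0, 0, 0, 9 and 0 counts in Tlr7 KO mice (adjusted p = 0.00668). Igkv4-51 had 25, 4 and 54 counts in WT and 2, 0, 0, 0 and 7 counts in Tlr7 KO mice (adjusted p = 0.0321). Its call missed the threshold in 8 of 18 alternatives. In the second table Igkv4-51 had 5, 19 and 19 counts in WT and 6, 6, 5, 2 and 9 counts in Tlr7 KO mice. The pseudogene Igkv4-83 had 20, 3 and 31 counts in WT and 4, 1, 1, 0 and 0 counts in Tlr7 KO mice (adjusted p = 0.0143), so its groups overlapped. Igkv1-35 had 23, 2 and 7 counts in WT and 0, 2, 1, 1 and 0 counts in Tlr7 KO mice (adjusted p = 0.0269), again with overlap. The call of Igkv1-35 missed the threshold in 6 of 15 alternatives. A fitted fold change near 0 counts depends on the constant added to the counts, so none is given for these 4 genes.

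Only 2 of the 68 members tested had an estimate above 0 in Tlr7 KO, Igkv6-17 (log2 fold change 0.49, SE 0.56, adjusted p = 0.530) and Igkv9-124 (log2 fold change 0.32, SE 0.51, adjusted p = 0.660), named after their values were seen. The count of 33 DE members was 17 of 60 tested without WT 1 and 21 of 57 without WT 3, with median log2 fold changes of -1.27 and -1.38 against -1.41 with all mice. Over all genes the count of DE genes went from 4566 of 13937 to 2735 of 13114 and 2601 of 12903. Of the 21 without WT 3, the library highest in salivary genes, 20 were among the 33. The count was also 21 without the libraries highest in muscle genes (17 among the 33), where 1 WT mouse remains and is assumed to vary like the Tlr7 KO mice.

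**Figure D4:**
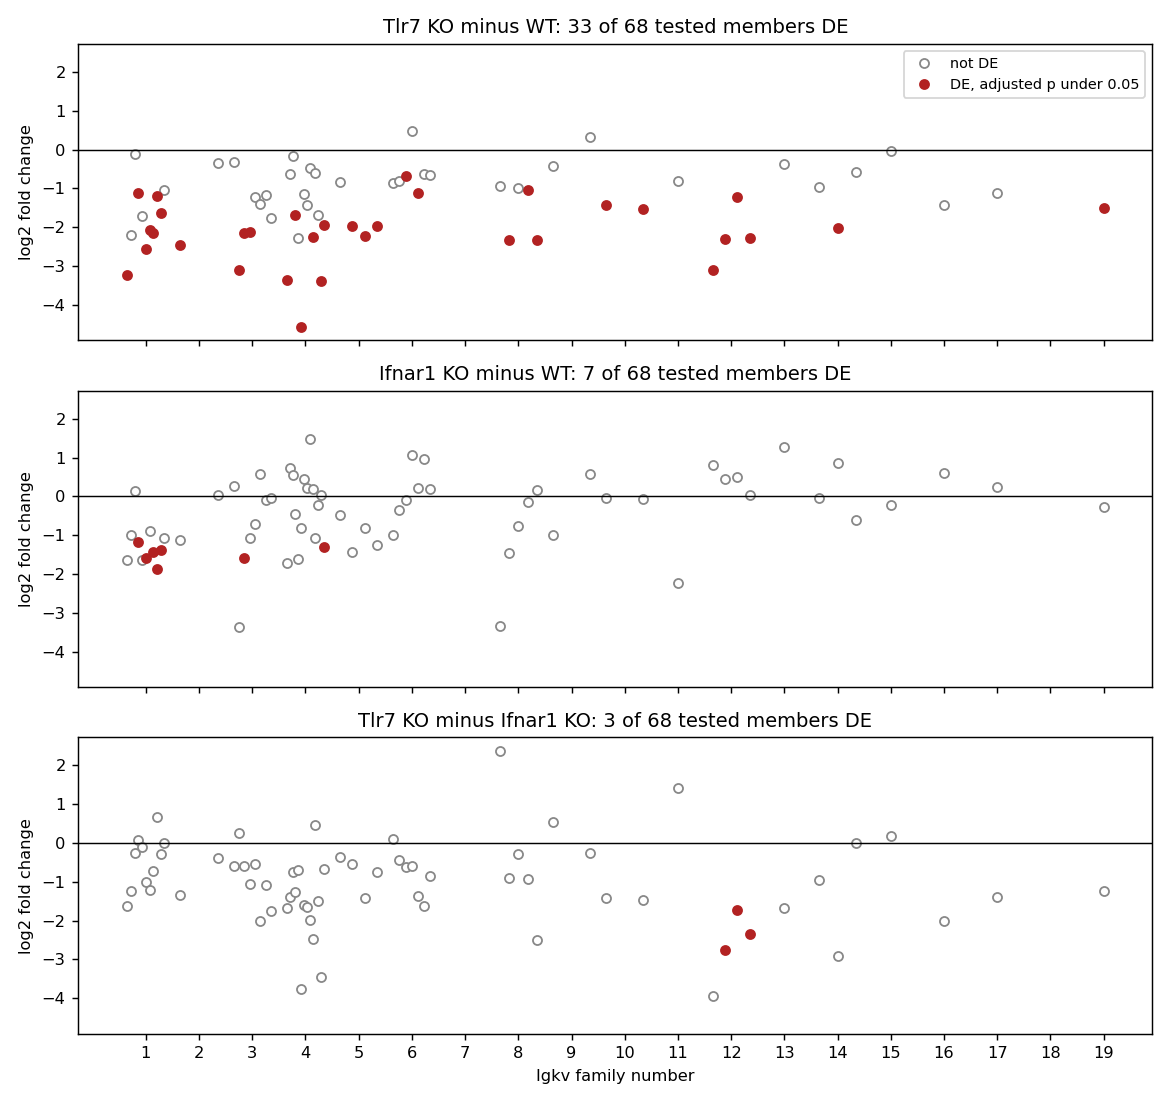
Log2 fold change of each tested Igkv gene against its family number in the 3 comparisons (second group minus first), with filled points for DE genes and open points for the others. In Tlr7 KO against WT 33 of 68 members are DE and all are below 0, in Ifnar1 KO against WT 7, of which 5 are in family 1, and between the knockouts 3, all in family 12.

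In the comparison of WT with Ifnar1 KO glands, fewer members passed the test. Here 7 of 68 members were DE, all lower in Ifnar1 KO and all by at least 2-fold. They were Igkv1-110, Igkv1-117, Igkv1-131, Igkv1-132, Igkv1-133, Igkv3-3 and Igkv4-86, so 5 of 7 belong to family 1, which was not tested as a group. The 7 are 10.3% of the members tested, beside 12.4% of all genes that were lower and 6.76% that were higher, so the share of members was not above the background. None was higher by edgeR or DESeq2, and 1 of the 12 members with an unadjusted p under 0.05 had an estimate above 0. Levels did not overlap for 10 members that were lower (14.7%) and for 1 that was higher, Igkv4-53, beside 21.1% and 20.7% of all genes. The median log2 fold change was -0.26 over the members tested and -0.02 over all genes tested.

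Among the DE members Igkv1-132 had the largest change, at 7.46, 7.85 and 9.43 CPM in WT and 1.12, 2.73 and 2.97 CPM in Ifnar1 KO mice (log2 fold change -1.88, SE 0.35, adjusted p = 0.0230). Igkv1-117 was at 2.69, 5.16 and 5.44 CPM in Ifnar1 KO mice, below the 8.42 to 16.9 CPM of WT (log2 fold change -1.58, SE 0.34, adjusted p = 0.0262). Igkv1-131 was at 14.2, 6.33 and 9.81 CPM in WT and 4.46, 4.52 and 2.39 CPM in Ifnar1 KO mice (log2 fold change -1.44, SE 0.35, adjusted p = 0.0324). Igkv1-133 was at 15.6, 8.86 and 11.9 CPM in WT and 6.03, 5.90 and 2.30 CPM in Ifnar1 KO mice (log2 fold change -1.38, SE 0.36, adjusted p = 0.0402). For each of these genes the WT and Ifnar1 KO ranges were apart. Outside family 1, Igkv3-3 had 39, 17 and 23 counts in WT and 8, 9 and 7 counts in Ifnar1 KO mice (log2 fold change -1.58, SE 0.44, adjusted p = 0.0450). In the second table Igkv3-3 had 1, 0 and 0 counts in WT and 0 in every Ifnar1 KO mouse, so its call rests on the first table alone. It missed the threshold in 11 of 17 alternatives.

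These 5 family 1 genes were also lower in Tlr7 KO than in WT, and none of them was DE between the knockouts (adjusted p = 0.140 to 0.908). The calls in Ifnar1 KO rest on 3 mice against 3 and moved with single libraries. When WT 1 or WT 3 was left out no member was DE by edgeR (7 and 13 at an unadjusted p under 0.05), and the same held for leaving out Ifnar1 KO 1 or 3 (15 and 11 at an unadjusted p under 0.05). Few genes of any kind were then DE, 13 of 13114 without WT 1, 104 of 12903 without WT 3 and 0 of 13937 without Ifnar1 KO 1 or 3, against 2677 of 13937 with all mice. There were 12 DE members without WT 2 and 4 without Ifnar1 KO 2. Without Ifnar1 KO 2 the family 1 genes among the 4 were Igkv1-117 and Igkv1-132. There were 3 without the libraries highest in salivary genes (Igkv1-117, Igkv8-19 and Igkv12-38). Without those highest in muscle genes 3 were DE (Igkv1-132, Igkv4-51 and Igkv4-57), but only WT 3 then remains in the WT group and is assumed to vary like the Ifnar1 KO mice.

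The counts of single genes differed between the tables in family 1 and in other families, and the cause was not tested. Besides Igkv19-93, Igkv10-94 had 160, 112 and 289 counts in WT mice in the first table and 8, 4 and 12 in the second, and Igkv6-13 had 142, 36 and 156 against 0, 0 and 0 (both named after their values were seen). Igkv19-93 shared no 31-base word with another annotated Igkv gene, member or not, Igkv10-94 shared 66.6% and Igkv6-13 49.8%. Igkv1-110 shared 63.6% of its 31-base words with other annotated Igkv genes and 63.1% with Igkv1-117. In the first table Igkv1-110 had 1539, 1190 and 1342 counts in WT mice, against 98, 72 and 86 counts in the second. Igkv1-117 had 494, 329 and 308 counts in WT mice in the first table and 351, 397 and 266 in the second, and Igkv1-131 had 0 in all 11 mice of the second table. In the second table Igkv1-110 had 119, 90, 85, 41 and 93 counts in Tlr7 KO and 26, 30 and 42 counts in Ifnar1 KO mice. Its log2 fold change in Tlr7 KO against WT was then 0.30, against -1.11 in the first table, and it was DE and higher in Tlr7 KO than in Ifnar1 KO. The difference between Ifnar1 KO and WT kept its direction in both tables, with 4 members DE in the second (Igkv1-110, Igkv1-117, Igkv4-86 and Igkv5-45). The levels and the order of single genes are thus uncertain, among them the place of Igkv1-110 as the most used gene.

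The knockouts were also compared directly. Between Ifnar1 KO and Tlr7 KO glands 3 of 68 members were DE, all lower in Tlr7 KO, and all 3 were of family 12 (Igkv12-41, Igkv12-44 and Igkv12-46). They are 4.41% of the members tested, beside 0.868% of all genes that were lower in Tlr7 KO and 0.926% that were higher. None was higher by edgeR or DESeq2, 2 of the 32 members with an unadjusted p under 0.05 had an estimate above 0, and DESeq2 called 9, of which 4 were of family 12 and 5 were not (Igkv3-7, Igkv6-23, Igkv8-28, Igkv14-126 and Igkv17-127). Levels did not overlap for 9 members that were lower in Tlr7 KO (13.2%) and for 1 that was higher, Igkv11-125, beside 5.24% and 5.47% of all genes. Of the 68 members tested 58 had an estimate below 0, and the median log2 fold change was -0.97 over the members tested and 0.00 over all genes tested.

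Igkv12-46 was at 15.9, 18.5 and 12.3 CPM in WT, 3.79, 5.91, 3.23, 1.94 and 1 CPM in Tlr7 KO, and 19.5, 17.8 and 11.6 CPM in Ifnar1 KO mice. Its log2 fold change between the knockouts was -2.34 (SE 0.38, adjusted p = 0.0184), with every Tlr7 KO mouse below every other mouse. Igkv12-44 was at 17.3, 15.1 and 13.1 CPM in WT, 8.80, 9.87, 4.07, 5.31 and 4.70 CPM in Tlr7 KO, and 12.8, 31.8 and 20.6 CPM in Ifnar1 KO mice (log2 fold change -1.72, SE 0.33, adjusted p = 0.0324). Igkv12-41 was the least used of the 3, at 0.753, 3.21 and 4.18 CPM in WT, 0.421, 0.522, 0.950, 0.206 and 0.634 CPM in Tlr7 KO, and 2.86, 2.24 and 6.07 CPM in Ifnar1 KO mice (log2 fold change -2.75, SE 0.42, adjusted p = 0.0150). WT 1 lay within the Tlr7 KO range for Igkv12-41.

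The 3 genes were lower in Tlr7 KO than in WT as well, with log2 fold changes of -2.31 (adjusted p = 0.0121), -1.21 (adjusted p = 0.0104) and -2.28 (adjusted p = 0.00406) for Igkv12-41, Igkv12-44 and Igkv12-46. Against WT, Ifnar1 KO mice had log2 differences of 0.44 (SE 0.62), 0.50 (SE 0.30) and 0.05 (SE 0.22), none of which was significant (adjusted p = 0.639, 0.266 and 0.898). The same 3 WT mice and the same knockout mice enter these comparisons, so they are not separate evidence.

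The V exons printed above differ at 13 positions between Igkv12-41 and Igkv12-44, at 15 between Igkv12-41 and Igkv12-46, and at 16 between Igkv12-44 and Igkv12-46. The 3 genes shared 53.6%, 55.8% and 48.4% of their 31-base words with other annotated Igkv genes, member or not. Reads may thus be split among these and other Igkv genes. All 3 were also DE in the second table, where Igkv12-46 had 170, 157 and 159 counts in WT, 49, 66, 39, 22 and 8 in Tlr7 KO, and 246, 193 and 181 in Ifnar1 KO mice. All 3 were DE without the libraries highest in salivary genes, and Igkv12-44 was not without those highest in muscle genes (adjusted p = 0.0802). Without Tlr7 KO 1 none of the 3 was DE by edgeR (adjusted p = 0.0527 for Igkv12-41, 0.0689 for Igkv12-44 and 0.0534 for Igkv12-46), with 28 members at an unadjusted p under 0.05. Igkv12-44 also missed the threshold without Tlr7 KO 3, 4 or 5 or Ifnar1 KO 3 (adjusted p = 0.0715 to 0.0900), and Igkv12-46 without Tlr7 KO 3 (adjusted p = 0.0525) or Ifnar1 KO 1 (adjusted p = 0.0744). Over 21 alternatives the direction was the same each time, with an adjusted p of 4.6e-07 to 0.0527 for Igkv12-41, 0.00402 to 0.0900 for Igkv12-44 and 6.4e-04 to 0.0744 for Igkv12-46.

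The other members of family 12 were less even. Igkv12-38 was at 1.53, 20.5 and 0.628 CPM in Ifnar1 KO mice, so a single mouse held most of its RNA in that group, and its log2 fold change of -3.94 between the knockouts was not significant (SE 0.95, adjusted p = 0.0731). In the second table it had 23, 45 and 7 counts in these mice. Igkv12-89 was at 0.127 CPM or below in every mouse and was not tested.

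**Figure D5:**
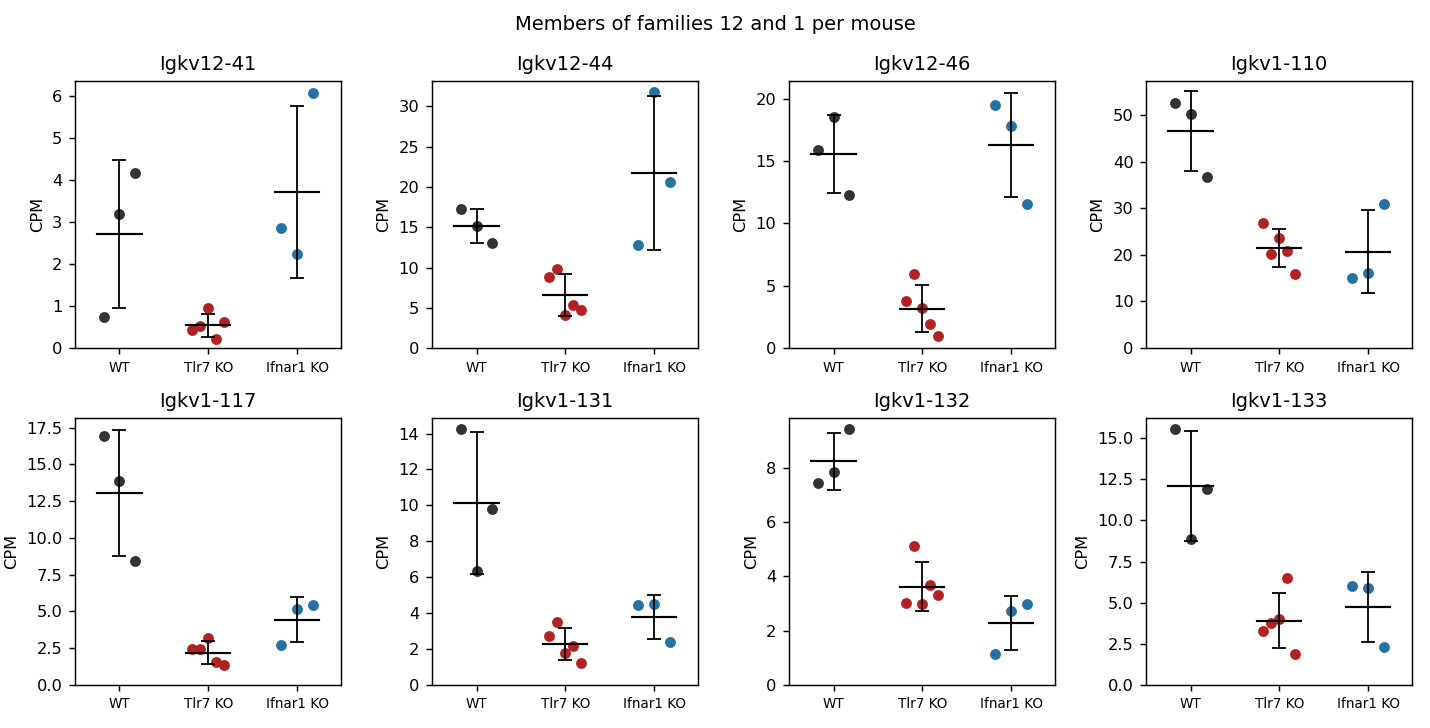
Level (CPM) of 3 family 12 genes and 5 family 1 genes in each mouse, by group, with points for mice and lines for group means with SD bars, each panel on its own scale from 0. For Igkv12-46 the Tlr7 KO mice sit at 1 to 5.91 CPM below both other groups, and for Igkv1-132 both knockouts sit below the WT range of 7.46 to 9.43 CPM.

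By orientation, + strand members held 36.1, 38.7 and 34.9% of Igkv counts in WT, 41.4, 38.7, 38.9, 46.8 and 40.5% in Tlr7 KO, and 30.5, 26.1 and 31% in Ifnar1 KO mice. Ifnar1 KO mice were below all other mice, and Tlr7 KO mice were above all WT mice, though Tlr7 KO 2 and WT 2 were nearly equal. In Tlr7 KO against WT, 10 of 28 tested + strand members and 23 of 40 tested - strand members were lower. In Ifnar1 KO against WT the numbers were 5 of 28 and 2 of 40, and between the knockouts 0 of 28 and 3 of 40. Of all genes tested, 17.4%, 12.4% and 0.868% were lower in these comparisons, and the strands were not tested against each other. Orientation goes along with the families that moved, since 4 of the 5 family 1 genes lower in Ifnar1 KO are on the + strand and the 3 family 12 genes are on the - strand. The 22 members numbered 100 or more, a limit chosen after values were seen, lie at the far side of the locus. They held 32.6 to 35.2% of Igkv counts in WT, 33.8 to 41.9% in Tlr7 KO and 18.4 to 28.6% in Ifnar1 KO mice. Of these members 8 are of family 1. Without family 1, the other 14 held 8.40 to 12.2% in WT, 9.78 to 23.5% in Tlr7 KO and 9.82 to 15% in Ifnar1 KO mice, so the ranges overlapped.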

How the data were processed

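Whole lacrimal glands of 3 WT, 5 Tlr7 KO and 3 Ifnar1 KO male NOD mice were sequenced. The authors quantified reads with salmon, which shares a read among transcripts it matches, and deposited the gene sums of tximport as estimated counts, which their file calls normalized although its columns keep unequal totals. A second table deposited by the authors holds whole-number counts of 12233586 to 16621073 per library, with a tool not given in the sources used here, and 1 further Ifnar1 KO column that belongs to no sample used here, which was left out. Submitters' processing notes name HISAT2 2.1.0, bcl2fastq and mm10. Estimated counts were taken as whole numbers.

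Genes with at least 30 summed WT counts were tested by edgeR's quasi-likelihood test (edgeR 4.0.16, R 4.3.3) with TMM scaling, 2 groups per fit and no covariate. Two-sided p values were adjusted over all genes tested (Benjamini-Hochberg), and DE means an adjusted p under 0.05. Log2 fold changes are second group minus first, with a prior count of 2. Counting precision is limited by depth, and 3 counts, taken as the floor, equal 0.0820 to 0.158 CPM. By the study's methods 1 gland per mouse was sequenced, so SDs are between mice and cover no repeat of a library. Shares, the effective number and figures were computed in Python 3.11.15 with pandas 2.3.3 and matplotlib 3.10.9. Annotation was GENCODE M21, which matched all 91 members by identifier. Alternatives were DESeq2 1.42.0, other scalings and filters, a single fit of all mice, replicate number as a block, a stricter threshold, the second table and leaving out mice. Leaving out the libraries highest in salivary or muscle genes was chosen after seeing the data.

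The named members were the 8 with the highest mean CPM, the most used of each mouse, per comparison and direction the 5 DE members with the largest change (at least 2-fold and a mean of at least 10 counts in the higher group), and every member DE between the knockouts. Igkc, Igkj1 to Igkj5, Iglc1 to Iglc3 and Jchain were named from the gene lists, which are from general knowledge. Members, lists and tests were chosen with earlier results of these data known. Columns of the authors' own comparisons were not used.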

Additional observations from a re-analysis of the deposited data

Results flagged for a closer look

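In the Tlr7 KO group, which has 5 mice, single mice stood far from the others in 9 of 41 values checked, where chance flags about 1 in 20 groups of continuous values. That rate does not apply to Igkv4-51, Igkv4-59, Igkv4-83 and family 18, which were at 0 or a few counts in most of these mice. Igkv4-53 was at 15.9 CPM in Tlr7 KO 3 and 3.75 to 5.35 CPM in the other Tlr7 KO mice, and Igkv6-32 was at 23.9 CPM in Tlr7 KO 4 and 5.65 to 8.28 CPM in the others. At low levels, Igkv4-51 was at 0.370 CPM in Tlr7 KO 5 (0 to 0.0765 CPM in the others), Igkv4-59 at 0.371 CPM in Tlr7 KO 4 (0 in the others), and Igkv4-83 at 0.153 CPM in Tlr7 KO 1 (0 to 0.0435 CPM in the others). By share of Igkv counts, Tlr7 KO 2 stood apart with 3.65% for family 9 (1.10 to 1.62% in the others), 0.907% for family 11 (0.255 to 0.439%) and 3.14% for family 14 (0.666 to 1.32%). Family 18 was at 0.0849% in Tlr7 KO 4 and 0 in the other Tlr7 KO mice. These values are from the first table. In the second, Tlr7 KO 5 was highest for family 9 (6.51%, with 6.26% in Tlr7 KO 2). Tlr7 KO 3 was highest there for family 11 (0.570%, with 0.498% in Tlr7 KO 2). For family 14 Tlr7 KO 2 was again apart (3.49%, against 0.913 to 1.39% in the other Tlr7 KO mice).

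The direct test between the knockouts differed for Igkv12-41 (log2 fold change -2.75, adjusted p = 0.0150), Igkv12-44 (-1.72, adjusted p = 0.0324) and Igkv12-46 (-2.34, adjusted p = 0.0184) by edgeR, in each case with all 5 Tlr7 KO mice below all 3 Ifnar1 KO mice.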

How the results depend on the processing

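Counts of DE Igkv genes are given for Tlr7 KO against WT (33), Ifnar1 KO against WT (7) and Tlr7 KO against Ifnar1 KO (3). With an adjusted p under 0.01 they were 13, 0 and 0 (1970, 1 and 30 of 13937 genes). With replicate number as a block (replicate block) they were 0, 0 and 10 by edgeR (35, 13 and 34 at an unadjusted p under 0.05), and 14, 0 and 502 of 13937 genes, against 4566, 2677 and 250 without it. Same-numbered mice correlated at -0.44 to 0.34 in their deviations from the group means. Pairs with a WT mouse were at -0.44 to 0.03. Between the knockouts the same-numbered pairs were at 0.06, 0.34 and 0.26, and the other pairs at -0.34 to 0.07. Whether mice of the same number share more than a number was not tested. Leaving out 1 mouse gave 17 to 38, 0 to 12 and 0 to 4. Leaving out the libraries highest in salivary genes gave 21, 3 and 3, and those highest in muscle genes 21, 3 and 3. The second table gave 4 for Ifnar1 KO against WT. Between the knockouts DESeq2 gave 9 and scaling by library size only gave 6. That scaling also gave summed log2 ratios of -1.70 for Tlr7 KO and -0.62 for Ifnar1 KO against WT, and it moved the median of all genes by -0.54 and -0.31. In the second table the effective number was 29.7 in WT and 29.2 in Ifnar1 KO mice, and Igkv1-110 reversed to a log2 fold change of 0.30 in Tlr7 KO against WT. The cause was not tested for any of these. Over 26 named calls, 390 alternatives kept direction and side of the threshold, 124 kept direction only and 1 reversed. Summed Igkv counts down to 2050 per mouse limit what can be said of members at a few counts.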

Other observations

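A few members were far higher in 1 mouse than in any other. Those with over 30 counts whose highest mouse was over 3 times the next were counted, a rule chosen after values were seen. There were 5 of them in the first table. Igkv12-38 reached 20.5 CPM in Ifnar1 KO 2, the next mouse was at 5.41 CPM and the median over the 11 mice was 0.826 CPM. Igkv4-78 was also highest in Ifnar1 KO 2, with 4.75 CPM against 1.16 CPM in the next mouse. Igkv1-88 was at 8.83 CPM in WT 1 against 2.47 CPM, Igkv3-2 at 1.37 CPM in WT 1 against 0.337 CPM, and Igkv4-57 at 1.12 CPM in WT 3 against 0.228 CPM. In the second table Igkv12-38 had 45 counts in Ifnar1 KO 2, against 41 in WT 1 and 37 in WT 2. Igkv4-57 had 23 counts in WT 1 and 1 in WT 3 there, and Igkv3-2 had 2 counts in WT 1 and 2 in Ifnar1 KO 3. Igkv1-88 (140 counts in WT 1, 45 in the next mouse) and Igkv4-78 (30 in Ifnar1 KO 2, 14 in the next) kept their highest mouse. Ifnar1 KO 2 and WT 3 are the libraries highest in salivary gland genes, and WT 1 is the highest in muscle genes.

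The pseudogene Igkv1-115 had 15, 6 and 45 counts in WT, 19, 2, 2, 0 and 2 in Tlr7 KO, and 8, 9 and 1 in Ifnar1 KO mice. Of the 23 members too low in WT to be tested, 1 had over 30 counts in a knockout mouse. Igkv9-123 had 43 counts in Ifnar1 KO 2, against 8, 1 and 11 in WT, 7, 4, 22, 13 and 2 in Tlr7 KO, and 3 and 9 in the other Ifnar1 KO mice. In the second table the share of family 9 was 3.92 to 6.51% in Tlr7 KO mice, above the 1.32 to 2.02% of WT and the 1.88 to 3.71% of Ifnar1 KO mice.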
